A study of Drosophila melanogaster with 2 samples.

Results

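The genes described here are the 86 protein-coding genes whose Ensembl symbol names a cytoplasmic ribosomal protein of the large subunit (RpL), of its stalk (RpLP0 to RpLP2) or of the small subunit (RpS, with sta). Membership was set by symbol alone, from 13945 protein-coding genes, and no measured value entered that rule. The gene family itself was chosen with earlier results of these data known. The large subunit contributed 45 genes, the stalk 3 and the small subunit 38. Genes with a hyphen in the symbol, such as RpL22-like, were outside the rule.

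The measurements were peak lists from chromatin immunoprecipitation and sequencing (ChIP-seq) of whole Drosophila melanogaster pupae aged 24 h. All animals came from 1 transgenic line that carries CG17806, a zinc-finger protein, with GFP at its C-terminus, and chromatin was precipitated with an antibody against GFP. The labels leave out which promoter drives the tagged gene, and a whole animal mixes many tissues, so a peak cannot be assigned to a cell type. There was 1 group of 2 biological replicates, with no second condition. The authors deposited a list of 30000 peaks for each replicate, a pooled list of 30000 peaks called on both, and a list of 7645 peaks that passed a threshold on the irreproducible discovery rate (IDR), a measure of how well replicates keep the same order of peaks. The lists hold no read counts, so the depth behind a peak is unknown. Peaks are ranked below by the authors' signal, with rank 1 the highest, and the IDR list was exactly the top 7645 peaks of the pooled list. A gene was counted when the summit of a peak, its highest point, lay within 500 bp of one of the gene's start sites. The offset is the distance to that site, negative upstream. Where a gene has several start sites, the one nearest each summit was used, so offsets at 1 gene can refer to different sites.

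Ribosomal proteins and ribosomal RNA together build the ribosome, and a cell needs the proteins in matching amounts. In flies a loss of 1 copy of many of these genes gives the Minute phenotype, with short thin bristles and slow development. Their promoters belong to the most active housekeeping promoters. Many start transcription at a pyrimidine-rich initiator, the TCT motif, which is known to work with the TBP-related factor Trf2 in place of the general TATA-binding protein. DREF, which binds the DRE word, and M1BP, which binds the Ohler motif 1 word, are known to act at promoters of this class.

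The sequences that follow show the kinds of position at which summits were found. The first set holds the 101 bases around the 4 highest-ranked summits, each well upstream of its gene, read on the strand of the gene, with RefSeq's Release 6 assembly (dm6) as the source. Capitals mark a TATA box word (TATAAA or its complement TTTATA) in RpL34b and RpS27, and a run of A in RpS20. The windows were RpL34b at chr3R:9401318-9401418, minus strand, RpL32 at chr3R:30046262-30046362, minus strand, RpS20 at chr3R:20821971-20822071, plus strand and RpS27 at chr3R:25247582-25247682, minus strand.
RpL34b: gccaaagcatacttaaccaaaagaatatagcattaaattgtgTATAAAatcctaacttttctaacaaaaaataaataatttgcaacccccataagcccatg
RpL32: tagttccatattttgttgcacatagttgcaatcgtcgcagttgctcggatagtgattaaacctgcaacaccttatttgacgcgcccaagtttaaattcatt
RpS20: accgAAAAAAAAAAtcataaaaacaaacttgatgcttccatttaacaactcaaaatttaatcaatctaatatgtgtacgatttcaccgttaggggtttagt
RpS27: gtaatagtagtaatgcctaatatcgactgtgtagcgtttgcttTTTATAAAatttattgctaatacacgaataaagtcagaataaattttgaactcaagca

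The second set holds canonical start sites that had an IDR summit within 50 bp, from 90 bases before to 15 after the start of the canonical transcript. Capitals mark TCTTT, the core of the TCT initiator, in RpS25, RpL3, RpL8 and RpL27, the DRE word TATCGATA in RpS25 and RpL27, and a TATA box word in RpS25. The windows were RpS4 at chr3L:13041666-13041771, plus strand, RpS25 at chr3R:11216272-11216377, minus strand, RpL3 at chr3R:11221804-11221909, plus strand, RpL8 at chr3L:2587366-2587471, plus strand and RpL27 at chr3R:25685036-25685141, minus strand. RpS4 held none of the searched words in these bases and is shown beside them for that reason.
RpS4: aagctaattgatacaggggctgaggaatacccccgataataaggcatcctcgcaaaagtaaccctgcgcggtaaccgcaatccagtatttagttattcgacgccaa
RpS25: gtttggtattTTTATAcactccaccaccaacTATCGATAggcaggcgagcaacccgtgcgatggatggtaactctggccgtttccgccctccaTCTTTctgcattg
RpL3: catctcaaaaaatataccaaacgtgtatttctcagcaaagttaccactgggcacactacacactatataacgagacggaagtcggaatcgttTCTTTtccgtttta
RpL8: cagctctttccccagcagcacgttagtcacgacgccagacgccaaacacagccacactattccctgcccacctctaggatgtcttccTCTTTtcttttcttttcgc
RpL27: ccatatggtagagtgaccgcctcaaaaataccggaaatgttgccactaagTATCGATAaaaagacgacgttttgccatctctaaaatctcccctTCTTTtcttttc

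The third set holds the start sites of 2 of the 4 duplicated genes in which 1 copy had a summit and the other none in any list. In the pairs not printed, RpL10Ab held the DRE word and RpL10Aa no searched word. RpS28b, which had a summit, and RpS28a both held none. Capitals mark the DRE word in RpS10b and TCTTT in RpS19a. The windows were RpS10a at chr3R:27652670-27652775, plus strand, RpS10b at chrX:19597950-19598055, plus strand, RpS19a at chrX:16637804-16637909, plus strand and RpS19b at chr3R:23933515-23933620, minus strand.
RpS10a: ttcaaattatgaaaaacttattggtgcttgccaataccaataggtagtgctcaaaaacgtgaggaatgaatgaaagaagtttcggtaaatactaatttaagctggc
RpS10b: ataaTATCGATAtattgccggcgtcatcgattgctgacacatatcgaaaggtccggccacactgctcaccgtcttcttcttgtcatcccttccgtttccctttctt
RpS19a: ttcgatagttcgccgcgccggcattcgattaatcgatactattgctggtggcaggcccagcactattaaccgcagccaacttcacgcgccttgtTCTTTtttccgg
RpS19b: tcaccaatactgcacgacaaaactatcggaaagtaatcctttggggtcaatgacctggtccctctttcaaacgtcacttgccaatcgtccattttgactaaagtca

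Ribosomal protein genes were found in all lists at a higher share than protein-coding genes as a whole. In the IDR list 43 of 86 had a summit, 50% against 19.5% of all protein-coding genes. In the pooled list 74 of 86 did, 86.0% (Wilson 95% interval 77.2 to 91.8) against 45.3%. Each replicate alone gave a similar count: 73 genes (84.9%) in replicate 1, against 47.2% of all protein-coding genes, and 74 genes (86.0%) in replicate 2, against 42.1%. Both replicate lists held a summit at 65 ribosomal protein genes, 75.6% against 33.1%. The interval covers counting error only, and no test between gene groups was run, because the genes were chosen with earlier results of these data known.

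**Figure D1:**
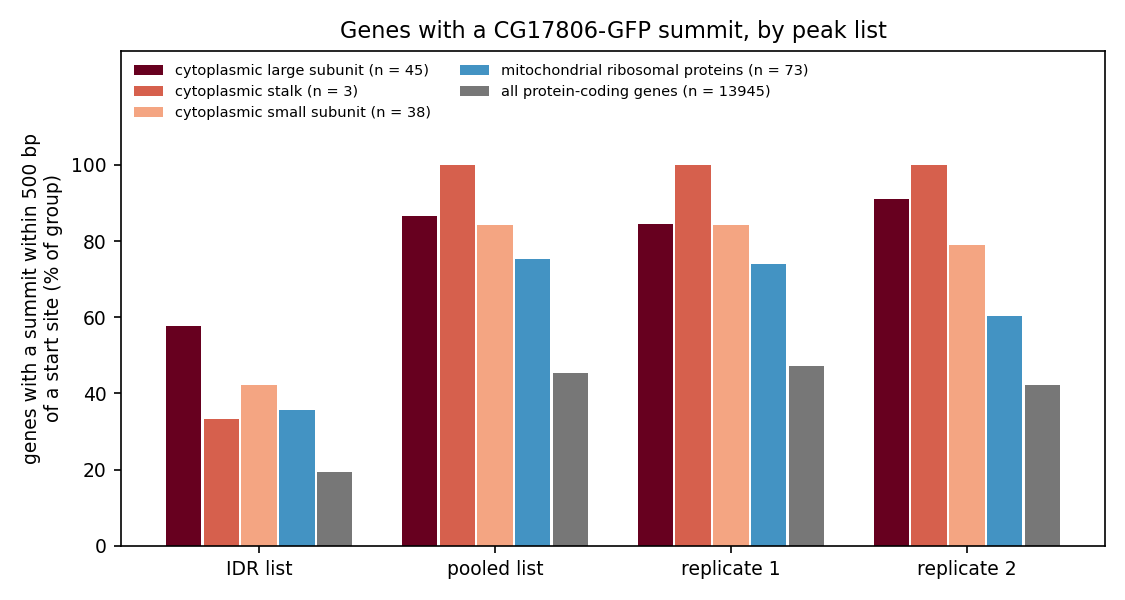
Bars show the percentage of genes with a summit within 500 bp of a start site in each deposited list, for cytoplasmic ribosomal protein genes of the large subunit, stalk and small subunit, for mitochondrial ribosomal protein genes and for all protein-coding genes. In the IDR list the large and small subunit stand at 57.8% and 42.1%, and all protein-coding genes at 19.5%.

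Both subunits were represented. Of the large-subunit genes 26 of 45 had an IDR summit and 39 a pooled one; of the small-subunit genes 16 of 38 had an IDR summit and 32 a pooled one. Among the stalk genes, whose products form the arm that recruits translation factors, RpLP0 was in the IDR list (rank 4541, 2 bp upstream). RpLP1 and RpLP2 were in the pooled list at ranks 9052 and 10736. Every arm that carries such genes contributed: 8 of 17 genes on 2L, 10 of 18 on 2R, 8 of 14 on 3L, 11 of 22 on 3R, 5 of 14 on X and the only one on chromosome 4, RpS3A, had an IDR summit. On X all 14 had a pooled summit. Shares of all protein-coding genes were not computed by arm, so these counts do not set any arm apart.

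The ribosomal protein genes were not among the strongest peaks. None had a summit among the first 1000 pooled ranks, where 480 protein-coding genes (3.44%) did. At ranks 1001 to 2000 stood the best summits of 2 (2.33%, against 2.77% of protein-coding genes). The bulk came in the middle of the list: 24 genes, 27.9% of them all, had their best summit at ranks 4001 to 6000, against 4.59% of protein-coding genes. Another 11 stood at ranks 6001 to 7645 (12.8%, against 3.68%). At ranks 7646 to 10000, just beyond the IDR list, stood 13 more (15.1%, against 5.18%). The median rank among the IDR summits was 5032 for ribosomal protein genes (lowest and highest 1180 and 7617) and 3459 for all protein-coding genes. Among the 1911 strongest IDR peaks, 2 ribosomal protein genes had a summit, RpL34b and RpL32 (2.33%, against 6.002% of protein-coding genes).

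**Figure D2:**
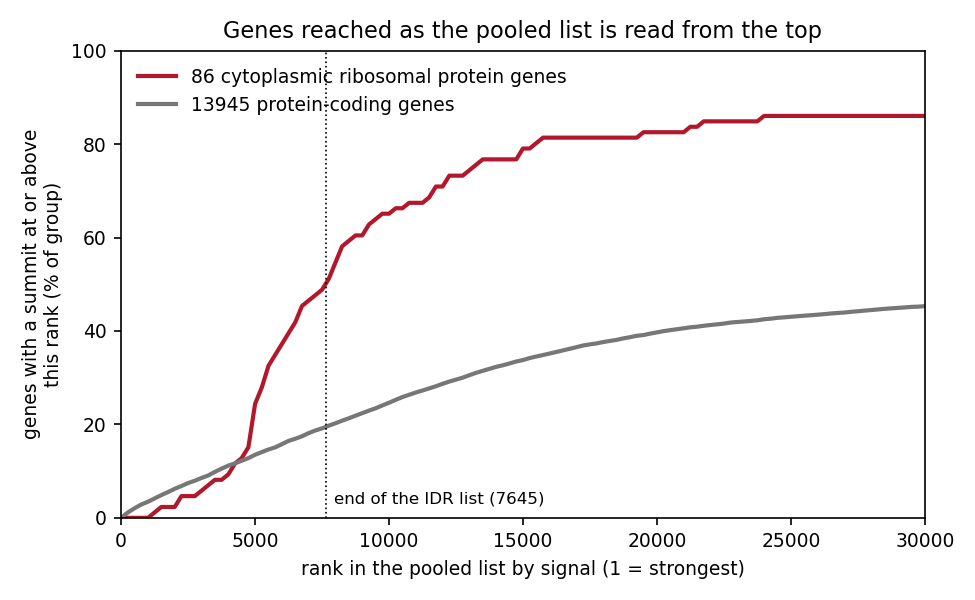
The percentage of genes reached (vertical axis) is plotted against the rank limit in the pooled list, with the end of the IDR list as a dotted line. The curve of the 86 ribosomal protein genes lies at or below that of the 13945 protein-coding genes near the top of the list, climbs steeply between ranks 4001 and 6000 and ends at 86.0%, against 45.3%.

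RpL34b, a large-subunit gene with a second copy elsewhere (RpL34a), held the highest-ranked summit. Its IDR peak lay on chr3R:9401197-9401547 (dm6) at rank 1180, with the summit 142 bp upstream; the replicates gave ranks 1247 and 1032 at offsets of −142 and −105 bp. The start of CG8132 lay closer to that summit, at 127 bp. RpL32, the reference gene of many fly expression studies under its older name rp49, followed at rank 1269, 151 bp upstream, on chr3R:30046111-30046492. In the replicates its ranks were 1734 and 799 and its offsets −151 and −195 bp. Both genes thus kept a high rank and an upstream summit in each replicate.

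RpS20 and RpS27, of the small subunit, were next, at ranks 2016 and 2183. RpS20 had its summit at −160 bp on chr3R:20821865-20822171, and the replicates put it at −160 and −164 bp. RpS27 had its summit at −118 bp on chr3R:25247382-25247898, but the start of Nup37, a nuclear pore gene, was only 26 bp from it. A second IDR summit at RpS27 lay at +476 bp with rank 6412, where the nearest start site was that of a non-coding RNA, 426 bp away.

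Other genes among the 10 highest-ranked did not share 1 position. RpL7 (rank 3283) had its summit at −45 bp on chr2L:10200926-10201161, with −27 bp in replicate 1 and +24 bp in replicate 2. The replicate offsets refer to different start sites. The replicate 2 summit, at position 10201028, lay upstream of the replicate 1 summit, at 10201073. RpL23 (rank 3860) had it at −320 bp, where the start of CG13531 was closer. RpL23A (rank 4016) and RpS4 (rank 4064) had summits at −94 and +2 bp, with no start site of another gene within 500 bp.

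At the low end of the IDR list stood RpL27 (rank 6700, offset 0), RpS9 (6881, −68 bp), RpS28b (7110, +29 bp), RpS18 (7340, +30 bp) and RpL29 (7617, +57 bp). Directly below the threshold came RpL27A (pooled rank 7655, −257 bp), RpL36 (7872, +42 bp), sta (7895, +9 bp) and RpL18 (8051, −380 bp). sta encodes the small-subunit protein RpSA, and its symbol comes from its mutant name stubarista. No gap in rank separated the genes on either side of the IDR threshold.

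Below that threshold stood 31 ribosomal protein genes with a pooled summit only. RpS6, whose product is phosphorylated downstream of TOR signalling, had pooled rank 8451 at +144 bp. Each replicate held 2 summits there, at +171 and −449 bp in replicate 1 and at −316 and +105 bp in replicate 2, with the better-ranked first. RpL40 and RpS27A are both made as fusions with ubiquitin, and they differed: RpL40 stood at pooled rank 15289 (+101 bp), outside the IDR list, and RpS27A at rank 6138 (−31 bp), inside it. RpL40 also had far-apart replicate summits, at +224 bp in replicate 1 and at −500 bp in replicate 2, the second nearer the start of CG3702. The lowest pooled ranks were those of RpS24 (19443, −191 bp), RpL12 (21225, −26 bp), RpL36A (21675, +72 bp) and RpS15Ab (23793, +29 bp).

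Summits at ribosomal protein genes lay closer to the start site than summits at other genes. The median offset of the best-ranked IDR summit was −36 bp (range −403 to +104 bp), against −150 bp over the 2713 protein-coding genes with an IDR summit. Within 50 bp of the start stood 23 of the 43 ribosomal protein genes (53.5%), against 8.88% of the protein-coding genes. Upstream of the start stood 29 of 43 (67.4%), against 84.9%. The upstream direction of the median depended on the list: it was −78.5 bp in the top 7645 peaks of replicate 2 and +11 bp in those of replicate 1. In the pooled list 42 of 74 ribosomal protein genes (56.8%) had the summit within 50 bp, against 17.7% of protein-coding genes.

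**Figure D3:**
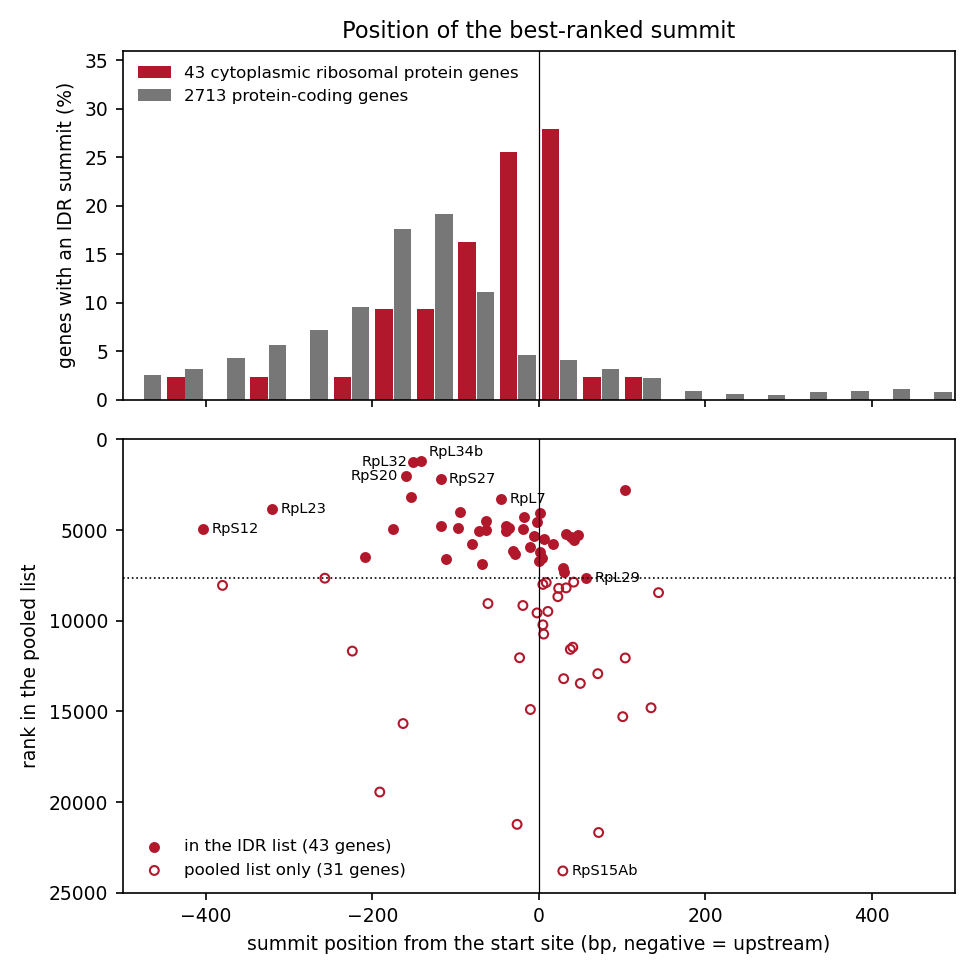
The upper panel gives the percentage of genes with an IDR summit in 50 bp steps of offset from the start site, for 43 ribosomal protein genes and 2713 protein-coding genes. The lower panel plots each ribosomal protein gene by the offset and pooled rank of its best summit (rank axis reversed, strongest at the top): RpL34b, RpL32, RpS20 and RpS27 lie upstream at the top, and most of the 43 IDR summits below them lie within 50 bp of the start.

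The 5 ribosomal protein genes at ranks 1 to 3000 had no summit within 50 bp, and their median offset was −142 bp. At ranks 3001 to 4500 it was 3 of 6 genes, at ranks 4501 to 6000 13 of 21 (61.9%) and at ranks 6001 to 7645 7 of 11 (63.6%). Over all protein-coding genes the share within 50 bp also differed between these ranges, from 4.53% at ranks 1 to 3000 to 7.77%, 10.3% and 18.7% in the lower ones. At each range from rank 3001 down the ribosomal protein genes had the larger share. The furthest upstream summit was at RpS12 (rank 4967, −403 bp), on chr3L:13022761-13023136, where the start of Adk2, an adenylate kinase gene, was nearer.

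By annotation, 22 of the 45 IDR summits at these genes lay upstream of the gene, 16 in a 5′ UTR and 7 in an intron. The same shares were not computed for other genes. Where the nearest start site is an internal one, a summit with a negative offset can lie inside the gene. RpL7 (−45 bp, 5′ UTR) and RpS9 (−68 bp, intron) are of this kind. Promoters shared with another gene were about as common as elsewhere: a start site of another coding gene lay within 500 bp of the summit at 23 of 43 ribosomal protein genes (53.5%), against 52.6% of all. Another gene had the nearest start site at 6 of 43 (14.0%), against 26.9%. RpL13 shares its summit (rank 4758) with Dref, the gene of the DRE-binding factor; the summit lay 117 bp upstream of RpL13 and 33 bp downstream of the start of Dref, on chr2L:9967008-9967383. RpL17 had 2 IDR summits, beside small nucleolar RNA genes, with offsets that refer to different start sites. The first (rank 6474, −209 bp), on chrX:6743279-6743433, lay in an intron. The second (rank 6872, −9 bp), on chrX:6743992-6744367, lay in a 5′ UTR.

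The replicates placed the summits differently. Of the 65 genes with a summit in both lists, 41 had best-summit offsets that differed by at most 100 bp (63.1%). For the 4619 protein-coding genes with both it was 69.2%. Each offset refers to the start site nearest that summit, so the summits themselves can lie further apart. At RpL17 the best summits stood at positions 6743378 and 6744323, with offsets of −211 and −85 bp. By offset, replicate 2 was the more upstream at 50 of 65 ribosomal protein genes (76.9%), with a median difference of −46 bp. Over all protein-coding genes it was 52.0%, with −3 bp. These and the following counts compare offsets. Where these refer to different start sites, as at RpL7, their order can differ from that of the summits. Of the 34 ribosomal protein genes whose replicate 1 summit lay within 50 bp of the start, replicate 2 was more upstream at 31 (91.2%, against 64.3% of all such genes). Chosen instead on replicate 2 lying within 50 bp, it was still 19 of 23 (82.6%, against 50.2%). Among genes whose replicate offsets differed by at most 200 bp, replicate 2 was more upstream at 42 of 54 (77.8%, against 50.8%). RpL8, with 1 summit in each replicate, had it at +41 bp in replicate 1 and at −143 bp in replicate 2. At other genes the best-ranked summit changed place: RpL3 had its best summit at +46 bp in replicate 1 and at −153 bp in replicate 2, nearer the start of CG6693, but replicate 2 also held a lower-ranked summit at +47 bp (rank 24689). The commonest peak width was 376 bp in replicate 1 and 340 bp in replicate 2, and its part in the shift was not tested.

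**Figure D4:**
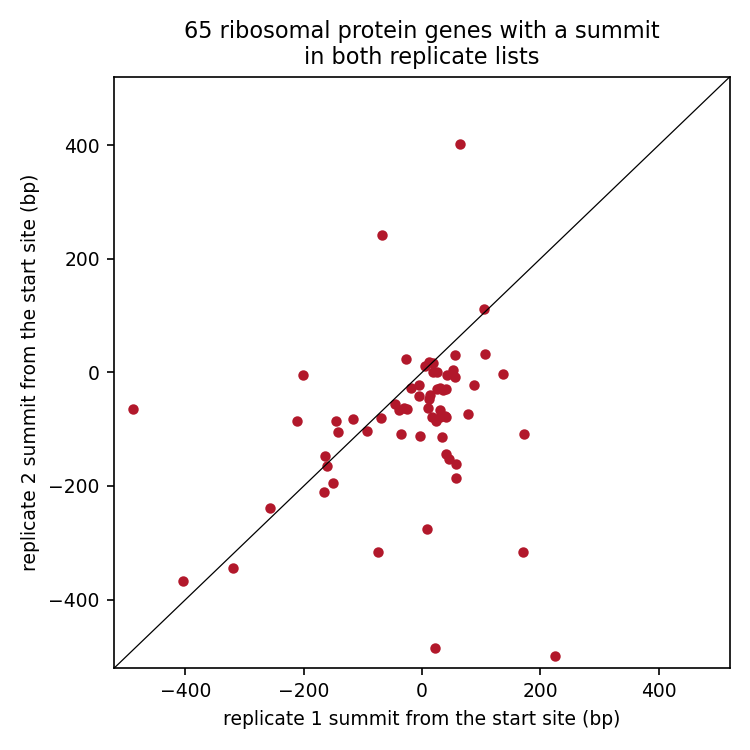
Each point is 1 of the 65 ribosomal protein genes with a summit in both replicate lists, placed by the offset of its best summit from the start site in replicate 1 (horizontal, bp) and in replicate 2 (vertical, bp). On the diagonal both offsets are equal. Below it lie 50 of the 65 points, where the replicate 2 offset is the more upstream. Each offset refers to the start site nearest that summit.

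Which genes were found also varied with the replicate, as it did over all protein-coding genes. Of the 86 ribosomal protein genes, 8 had a summit in replicate 1 and not in replicate 2, and 9 the reverse. Over the 13945 protein-coding genes it was 1966 and 1248. The split over all 4 lists that follows was not computed for other genes. All 4 lists held a summit at 40 ribosomal protein genes, and RpL9, RpL37A and RpS18 had an IDR summit although replicate 2 had none within 500 bp. The pooled list and replicate 1 shared RpL6, RpS3, RpS13, RpS15 and RpS15Ab, all absent from replicate 2, and the pooled list and replicate 2 shared RpL10. Replicate 2 alone held 8 genes. Some of these ranked high there: RpL14 stood at rank 2397 (−63 bp), RpL38 at 3171 (−163 bp), RpL15 at 3873 (−126 bp) and RpL21 at 5486 (−61 bp). Lower ranks there were those of RpS30 at 7956 (offset 0), RpL5 at 9659 (+39 bp) and RpS5b at 20549 (−492 bp).

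Around some of the genes found in replicate 2 alone, the other lists were empty over long stretches. From the start of RpL15 the nearest replicate 1 summit was 4357256 bp away and the nearest pooled summit 4141150 bp. For RpL5 the replicate 1 distance was 367294 bp, for RpL38 102587 bp and for RpL21 78477 bp. At RpL14 a replicate 1 summit lay 3192 bp away. RpL10, which also had a pooled summit, was 185472 bp from the nearest replicate 1 summit. Among ribosomal protein genes at the top 7645 ranks of replicate 2, 5 of 44 (11.4%) had no replicate 1 summit, against 8.91% of all such protein-coding genes; in the other direction it was 4 of 45 (8.89%), against 5.51%. The reason for these gaps was not tested.

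Duplicated ribosomal protein genes differed between copies. Of the 8 pairs, RpL10Aa, RpS10a, RpS19b and RpS28a had no summit in any list, and these were the only ribosomal protein genes with none. Their partners all had a pooled summit: RpS10b at rank 5488 (+6 bp), RpS28b at 7110 (+29 bp), RpS19a at 9569 (−2 bp) and RpL10Ab at 13194 (+30 bp). RpS5b had only a replicate 2 summit (rank 20549, −492 bp), while RpS5a stood at pooled rank 6600 (−112 bp). For 3 of these copies a pooled summit lay not far beyond the 500 bp limit, 507 bp from RpS28a (rank 7477), 572 bp from RpS5b and 895 bp from RpS19b (rank 566).

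In the other pairs both copies were found. RpL34a had rank 4908 (−97 bp) and RpL34b rank 1180 (−142 bp). RpS14a and RpS14b, neighbouring copies on X, stood at ranks 11578 (+38 bp) and 8673 (+23 bp). RpS15Aa stood at rank 14799 (+135 bp) and RpS15Ab at 23793 (+29 bp), the lowest pooled rank of any ribosomal protein gene. Reads from copies of near-identical sequence may be shared or discarded in alignment, which cannot be checked in peak lists.

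Base composition at the summits differed from that at other genes. Within 50 bp of the IDR summit the median AT content was 59.4% at ribosomal protein genes (SD 10.8, range 40.6 to 82.2, n = 43), against 71.3% at protein-coding genes (SD 9.18, n = 2713). It went with position. The 23 ribosomal protein genes with a summit within 50 bp of the start had a median of 54.5%, against 61.4% of the 241 protein-coding genes with such summits. The 11 with a summit 100 to 500 bp upstream had 71.3%, against 72.3% of 1881. The upstream windows of RpL34b, RpS20 and RpS27 printed above are of the AT-rich kind (70.3%, 71.3% and 71.3%), with RpL32 at 60.4%, while the 106-base start windows, which are placed differently, held 47.2% at RpL8, 49.1% at RpS25, 52.8% at RpS4, 59.4% at RpL27 and 61.3% at RpL3.

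**Figure D5:**
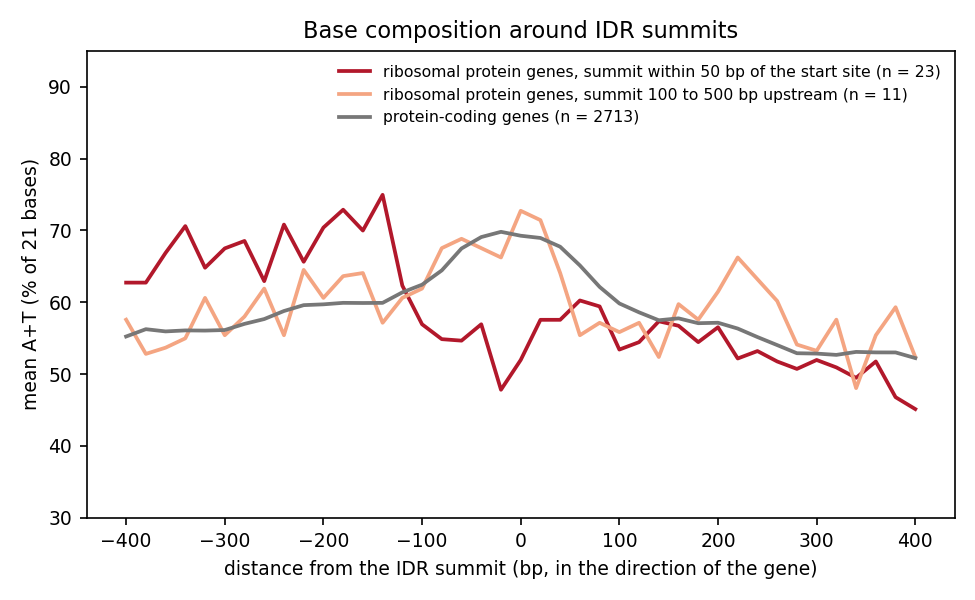
Mean AT content is plotted against distance from the IDR summit on the strand of the gene, for ribosomal protein genes with the summit within 50 bp of the start, ribosomal protein genes with the summit 100 to 500 bp upstream, and all 2713 protein-coding genes. At the summit itself the lines stand at 52.0%, 72.7% and 69.3%.

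Core promoter words were counted in the same windows, on both strands unless stated. TCTTT on the gene's strand within 10 bp of the canonical start, the mark of a TCT initiator, was present at 42 of 86 ribosomal protein genes (48.8%), against 2.99% of all protein-coding genes. It did not separate genes with a peak from those without: 21 of the 43 genes with an IDR summit had it and 21 of the 43 without. Genes with TCTTT that are not ribosomal protein genes had an IDR summit in 21.1% of cases and a median offset of −141 bp. Among ribosomal protein genes with an IDR summit, it lay within 50 bp of the start at 13 of 21 with the word and at 10 of 22 without.

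The DRE word TATCGATA stood within 50 bp of the summit at 6 of 43 ribosomal protein genes (14.0%), against 1.92% of protein-coding genes, namely RpL41, RpS25, RpL28, RpL19, RpL26 and RpL27. GGTCACAC, the core of Ohler motif 1, stood at RpL30, RpLP0, RpL37A and RpS23 (9.30%, against 0.921%). CACGTG, the E-box word that the growth factor Myc recognises with Max, stood at RpL7 and RpS28b (4.65%, against 0.663%). Lower shares than at other genes were those of TATAAA (18.6%, against 27.0%), GAGAG (2.33%, against 7.78%) and AAAAAAA on either strand (6.98%, against 16.5%). They stand for 8, 1 and 3 of 43 genes. Their Wilson intervals (9.74 to 32.6, 0.412 to 12.1 and 2.40 to 18.6) all include the share of protein-coding genes. Counts this small therefore do not show that these words were less frequent. TATAAA and an A run can overlap.

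The same words were counted over whole promoters. From 250 bp before to 50 bp after the start, DRE stood in 29.1% of the 86 ribosomal protein genes and 8.94% of all promoters, the Ohler motif 1 core in 15.1% and 7.54%, and CACGTG in 9.30% and 4.26%. TATAAA stood in 47.7% and 45.3%, GAGAG in 17.4% and 30.2%, and AAAAAAA in 30.2% and 26.7%. For TATAAA and AAAAAAA the order was opposite to that at the summits. Their Wilson intervals (37.4 to 58.1 and 21.5 to 40.6) include the share of all promoters, so no difference was shown for either word. That of GAGAG (10.9 to 26.8) lay below it. Set against all genes with a summit within 50 bp of the start, the 23 ribosomal protein genes of that kind still had DRE more often (17.4%, against 7.47%), and likewise the Ohler motif 1 core (17.4%, against 4.15%) and CACGTG (8.70%, against 0.830%). In the same comparison TATAAA was not less frequent (17.4%, against 14.9%), while AAAAAAA (4.35%, against 14.1%) and GAGAG (0 of 23, against 11.6%) were. With at most 4 of the 23 genes for any of these words, the shares rest on few sites.

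Other genes of translation resembled these to differing degrees. Cytoplasmic ribosomal protein genes had an IDR summit at 43 of 86 (50%), against 26 of 73 mitochondrial ribosomal protein genes (35.6%), whose products build the ribosome of the organelle. The share of all protein-coding genes was 19.5%. The IDR summit lay within 50 bp of the start at 23 of the 43 cytoplasmic genes and at 0 of the 26 mitochondrial ones. The median rank was 5032 at the cytoplasmic and 3604.5 at the mitochondrial genes, and the median offset −36 bp and −133.5 bp in the same order. Elongation and other abundant translation factors had an IDR summit at 5 of 11 genes (45.5%) and a pooled one at 10 (90.9%). These shares were near those of cytoplasmic ribosomal protein genes (50% and 86.0%), against 19.5% and 45.3% of all protein-coding genes. Of the factors in the IDR list, Rack1, which sits on the small subunit, stood at rank 5752 (+13 bp). The ranks of eEF5 and eEF1alpha1 were 7333 (−13 bp) and 6876 (−64 bp). The other two ranked higher, eEF1gamma at 2638 (−71 bp) and pAbp, the gene of the poly(A)-binding protein, at 2252 (+474 bp).

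Ribosome assembly genes had an IDR summit at 5 of 18 (27.8%, against 19.5% of all protein-coding genes). Some of these 5 ranked far above any ribosomal protein gene. eIF6, which keeps the subunits apart, stood at rank 100 (−89 bp) and Ns2, a nucleolar GTPase, at 199 (−177 bp). NHP2, a small nucleolar RNA-binding protein, stood at 1159 (−203 bp), and Nopp140 and nop5 at 3288 (−89 bp) and 4283 (−242 bp). The 4 relatives of ribosomal proteins with a hyphenated symbol had no IDR summit. Among 8 regulators listed for these genes or for growth, Trl (rank 1586), Mnt (1898), M1BP (2091), Max (3542), Dref (4758) and Trf2 (7381) had an IDR summit, and Myc and Xrp1 a pooled one only.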

How the data were processed

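The authors made each replicate list from 1 alignment and a control alignment, the pooled list from both replicates and the IDR list from these, per the descriptions deposited beside them. Aligner, peak caller and depth: not given in the sources used here. The deposited signal has no stated scale and served only for ranks. The deposited −log10 q-value was lowest in replicate 2 (0.146), higher in the pooled list (0.405) and replicate 1 (0.735), and equal for all IDR peaks, so the longer lists hold weak peaks. Coordinates are dm6, 1-based. No column (0) was left unassigned.

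Start sites of all transcripts came from Ensembl release 115 and sequences from the RefSeq Release 6 assembly, with Python 3.11.15, numpy 2.4.6, pandas 2.3.3 and scipy 1.17.1. Summit assignment was tested on simulated data. Members, gene lists and words were chosen with earlier results of these data known. The genes named are the 10 best and 5 lowest IDR summits, the 5 best pooled summits outside the IDR list, up to 5 genes with a replicate summit only, genes with none, duplicated pairs, genes with several IDR summits and the extremes of offset. Some genes that this rule names are not reported here. Other named genes, the splits by position and TCTTT, the replicate shifts and the distances to nearest summits were chosen after seeing the data. Alternatives were other distances and windows, nearest or canonical start sites, the 1911 strongest IDR peaks, single replicates and a −log10 q of at least 2.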

Additional observations from a re-analysis of the deposited data

How the results depend on the processing

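Of 34 alternative values for the main results, 27 kept their direction and lay within 1.5 times the main count or 1 SD between replicates of the main value. For the median offset that still spans −78.5 to −19 bp, the last with nearest start sites only. The limits are loose. The SD came from the same 2 single-replicate values that it judges, and with 86 genes no rise of the pooled count of 74 could exceed its limit. The tally is therefore not a test of how stable the results are. Windows of 100 bp around the summit in place of 50 hold more bases, and the share with each word was larger in both gene groups. It was 20.9% for DRE (against 6.23% of all protein-coding genes), 11.6% for the Ohler motif 1 core (2.76%) and 14.0% for CACGTG (1.81%). For TATAAA it was 30.2% (44.2%), for GAGAG 6.98% (18.7%) and for AAAAAAA 11.6% (28.3%). The count of genes with an IDR summit was 2 among the 1911 strongest peaks, in place of 43. That is 2.33%, against 6.002% of all protein-coding genes. In the whole IDR list it was 50%, against 19.5%. Among the strongest peaks the order of the 2 shares was thus reversed. With the strongest peaks of a single replicate instead of the IDR list, the median rank ranged from 4501 to 5038, the median AT content from 59.4% to 60.4% and the median offset from −78.5 to +11 bp, downstream in replicate 1; the cause was not tested. Replicate offsets differed by at most 50 bp at 27 of 65 genes. The median AT content was 54.9% within 25 bp and 58.2% within 100 bp of the summit, windows that hold fewer or more bases. The single-replicate medians of rank and AT content and the single-replicate counts for the pooled list were added after seeing the data. Depth is unknown, 1 group of 2 replicates gives no test, and a gene without a summit is only one without a listed peak.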
